A study of Mus musculus with 18 samples.

Results

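Antigen presentation genes are described here as 10 mouse genes chosen by name, 6 of the class I pathway (B2m, H2-K1, H2-D1, Tap1, Tapbp and Nlrc5) and 4 of the class II pathway (Cd74, H2-Aa, H2-Ab1 and H2-Eb1), out of 13787 gene IDs in the 3 deposited tables. All 10 were found in each table through their Ensembl IDs. The cells were acute myeloid leukemia (AML) driven by MLL/ENL and Nras, either wild type for p53 (p53WT) or lacking it (p53null). They were grown as syngeneic transplants in C57BL/6 mice. Once disease was established the mice received vehicle or CX-5461, which inhibits RNA polymerase I. Leukemia cells carrying GFP were then isolated from bone marrow by FACS, and their RNA was sequenced. The 18 samples form 6 groups of 3: p53WT AML given CX-5461 or vehicle for 10 h, p53null AML given CX-5461 or vehicle for 10 h, and p53WT AML given CX-5461 or vehicle for 72 h. The dose, the age of the mice and how many animals or separate leukemias stand behind a group are not given in the sources used here, so that p-values measure the spread between these samples.

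Class I molecules are made of a heavy chain (H2-K1 or H2-D1) and the light chain B2m, and they show peptides from inside the cell to CD8 T cells on nearly all nucleated cells. The peptides enter the endoplasmic reticulum through the transporter subunit Tap1 and are loaded with the help of tapasin (Tapbp), and Nlrc5 is the transactivator of the class I genes. Class II molecules, such as H2-Aa paired with H2-Ab1, show peptides from the endocytic route to CD4 T cells, guided by the invariant chain Cd74. H2-Eb1 encodes a further class II beta chain, and no alpha chain that pairs with it is among the members. Class II genes are typical of B cells, dendritic cells and macrophages, and their transcription depends on the transactivator Ciita.

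Counts per library were at hand for p53WT AML at 10 h only, with 21578685 to 48118513 counts per library over 12679 genes. Levels are given as CPM, the count of a gene scaled to the normalized library total. Across genes, Pearson's r of log2 CPM was 0.974 to 0.987 for pairs of vehicle libraries and 0.995 to 0.996 for pairs of CX-5461 libraries, so that the vehicle libraries differed more among themselves. Library numbers below are those of the count columns and only name the libraries. The leukemia genes Hoxa9, Hoxa10, Meis1, Mpo, Elane, Kit, Cd34 and Itgam were all measured, with a summed level of 10182 to 12887 CPM in vehicle and 13080 to 13112 CPM with CX-5461. Most of this sum was Mpo and Elane. Itgam had 711 to 1038 CPM with vehicle and 535 to 591 CPM with CX-5461, while 2 of the 8 genes had all CX-5461 libraries above all vehicle libraries. Over all genes 19.1% lay below in this way and 19.9% above. The authors' deposited tables called 1 of the 8 lower and 0 higher in p53WT AML at 10 h, and 4 lower and 1 higher at 72 h. Of all genes 6.83% were called lower and 3.57% higher at 10 h, and 15.1% lower and 16.1% higher at 72 h. For the p53null table and the 72 h table there are no values per library, the depth is unknown, and their fold changes are the authors' own.

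The start regions of the members are shown as a description, and a link to their levels across the libraries was not tested. RefSeq promoter windows (GRCm38.p6, from 250 bases before to 50 bases after a start site) were matched for 7 of the 10 members, in 8 windows. Those of Nlrc5, Cd74 and H2-Ab1 were not matched. The 150 bases before the start site are printed 5′ to 3′ on the strand of the gene for H2-Aa (chr17:34287824-34287973, minus strand), H2-Eb1 (chr17:34305717-34305866, plus), H2-K1 (chr17:34000334-34000483, minus), H2-D1 (chr17:35262944-35263093, plus) and B2m (chr2:122147537-122147686, plus). Capitals mark matches, on either strand, to the core of the Y box (CCAAT, which reads ATTGG on the other strand), the core of the X2 box (TGACG, or CGTCA) and the interferon-stimulated response element (ISRE, GAAA, any 2 bases, GAAA).
H2-Aa: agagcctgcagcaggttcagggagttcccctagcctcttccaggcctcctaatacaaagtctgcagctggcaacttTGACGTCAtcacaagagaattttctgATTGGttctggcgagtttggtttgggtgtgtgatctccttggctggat
H2-Eb1: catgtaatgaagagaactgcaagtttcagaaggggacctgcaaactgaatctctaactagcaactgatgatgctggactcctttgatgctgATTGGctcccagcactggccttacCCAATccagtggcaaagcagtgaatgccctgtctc
H2-K1: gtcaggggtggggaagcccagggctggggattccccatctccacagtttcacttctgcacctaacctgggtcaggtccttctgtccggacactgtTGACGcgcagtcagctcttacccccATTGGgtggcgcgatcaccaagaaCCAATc
H2-D1: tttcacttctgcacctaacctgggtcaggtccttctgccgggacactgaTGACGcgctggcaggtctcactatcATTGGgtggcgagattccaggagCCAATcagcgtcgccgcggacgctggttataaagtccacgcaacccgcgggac
B2m: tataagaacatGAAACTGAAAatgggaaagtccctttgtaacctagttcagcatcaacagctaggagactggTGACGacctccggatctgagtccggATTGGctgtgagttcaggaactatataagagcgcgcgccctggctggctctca

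In RefSeq the protein-coding genes H2-Ab1, H2-Aa and H2-Eb1 follow each other on chromosome 17, and Tap1 lies there between Psmb9 and Psmb8.

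A CCAAT core lay in all 8 member windows and in 37.4% of the 32851 windows of all genes, and a TGACG core in 6 of 8 against 20.8%. In H2-Aa both strands match TGACG and the matches overlap, so that they stand as 1 run of capitals. The exact ISRE pattern was matched in 1 member window, that of B2m, against 3.44% of all windows. The GAS motif (TTC, any 3 bases, GAA) was matched in 0 of 8 against 8.30%. In B2m, H2-K1 and H2-D1 the first base of ATTGG lay 25 bases after the first base of TGACG, and in H2-Aa 26 bases after it. A gap of 25 or 26 bases was present in 31 of the 32851 windows (0.0944%), in 27 genes, of which 4 were these members and 1 more was the class I-like gene H2-M3. This gap was chosen after the sequences were seen. The windows of Tap1, Tapbp and H2-Eb1 did not have it. A match describes letters and says nothing about a bound factor. Variants of a motif were not searched, so that a miss does not show that an element is absent.

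In p53WT AML at 10 h 1 of the 4 class II genes passed the test, and the vehicle libraries spread widely for all 4. H2-Eb1, a class II beta chain, was the 1 member of 10 that passed the edgeR quasi-likelihood test, against a background of 4.32% of the 12679 genes called lower, 3.78% called higher and 8.1% called in either direction. Its level was 10.2, 29.0 and 4.21 CPM in vehicle libraries 1, 2 and 3, against 2.505, 1.74 and 1.23 CPM in CX-5461 libraries 1, 2 and 3. All CX-5461 values lay below all vehicle values, with library 2 highest and library 3 lowest among the vehicle samples. H2-Eb1 fell 7.74-fold, from 14.5 ± 12.9 to 1.83 ± 0.639 CPM (SD, n = 3 libraries each). On the log2 scale this was -2.95 with an SE of 0.70, and the edgeR quasi-likelihood adjusted p (Benjamini-Hochberg) was 0.0493. The lowest CX-5461 value of H2-Eb1 rests on 29 reads.

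Cd74, the invariant chain that fills the class II groove until peptide is loaded, stood at 35.1, 89.9 and 10.3 CPM with vehicle and at 7.25, 3.95 and 5.75 CPM with CX-5461. The groups did not overlap, and vehicle library 3 stood at 10.3 CPM, near the CX-5461 library at 7.25 CPM. Its log2 fold change was -2.98 (SE 0.729), with an edgeR quasi-likelihood adjusted p of 0.0517, just above the threshold of 0.05. The alpha chain gene H2-Aa had 13.5, 38.4 and 4.70 CPM with vehicle and 2.90, 2.30 and 2.04 CPM with CX-5461, again without overlap. Its log2 fold change was -2.95 (SE 0.716), with an edgeR quasi-likelihood adjusted p of 0.0513.

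H2-Ab1, the beta chain that pairs with H2-Aa, had 14.0, 30.2 and 4.48 CPM with vehicle and 6.75, 4.64 and 3.96 CPM with CX-5461. Here the groups overlapped, since vehicle library 3 lay below 2 of the CX-5461 libraries. The log2 fold change of H2-Ab1 was -1.65 (SE 0.612), with an edgeR quasi-likelihood adjusted p of 0.121. Of the 4 class II members, 3 thus had every CX-5461 library below every vehicle library, which held for 19.1% of all genes (the reverse held for 19.9%, and the groups did not overlap either way for 39%). As a group the 4 had a median of -2.95 on the log2 scale, beside 0.0040 over all genes tested.

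Summed markers of B cells, red cell precursors and neutrophils ranked the vehicle libraries as the class II genes did, with values given further on, and their part in the result was not tested.

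The calls on these genes changed with single libraries and with the test. Without vehicle library 3 all 4 class II members passed the edgeR quasi-likelihood test, and without vehicle library 2 the 3 members Cd74, H2-Aa and H2-Eb1 passed, at log2 fold changes of -2.01, -1.92 and -1.97. Those fits called 840 and 665 of all 12679 genes lower (6.63% and 5.24%), against 548 with all 6 libraries. Without CX-5461 library 1, 2 or 3 none of the 10 members passed, and those fits called 0 or 1 of all 12679 genes lower and 23 or 24 higher. In the authors' deposited table for p53WT AML at 10 h, also made with edgeR, all 4 class II members were lower at a false discovery rate (FDR) of 4.64e-07 to 0.00473, where 6.83% of all genes were called lower, 3.57% higher and 10.4% in either direction.

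**Figure D1:**
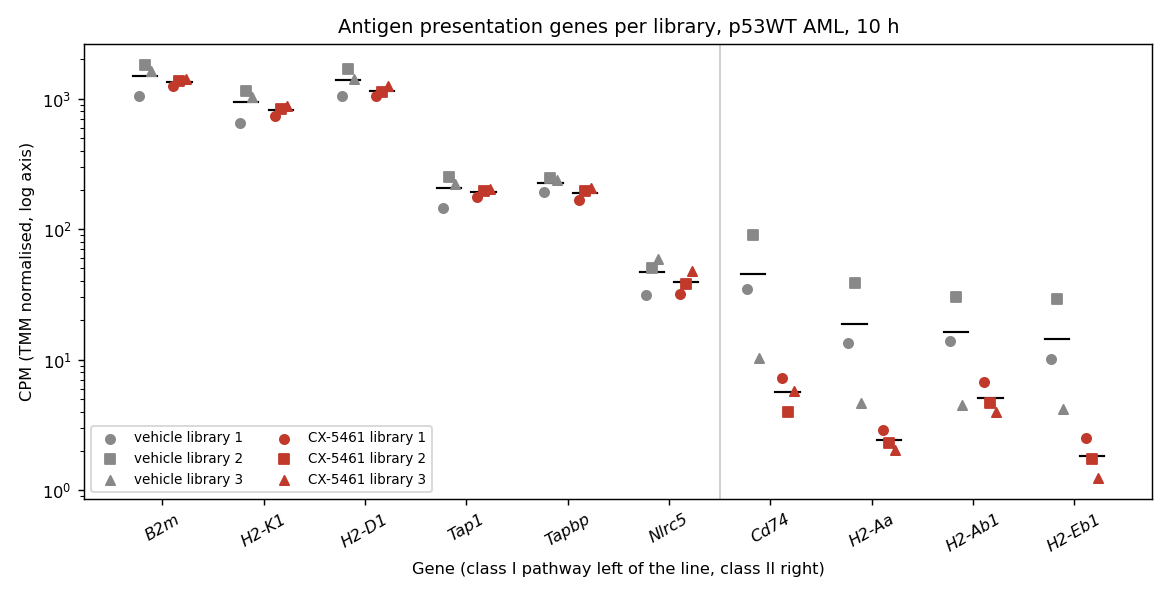
CPM of the 10 members (x axis) in each library of p53WT AML at 10 h, on a log axis, with grey symbols for vehicle, red symbols for CX-5461, a symbol shape for each library number and black bars for group means. The class II genes on the right spread widely among the vehicle libraries (H2-Eb1 from 4.21 to 29.0 CPM) and their means are lower with CX-5461. The groups do not overlap for Cd74, H2-Aa and H2-Eb1, and overlap for H2-Ab1 and all 6 class I genes.

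Genes of the class I pathway overlapped between the arms at 10 h, and none of the 6 passed. The count was 0 by the edgeR quasi-likelihood test, also before adjustment, and 0 by DESeq2, limma-voom and the edgeR exact test. Of all genes 8.1% passed the first of these tests, 31.4% had an unadjusted p under 0.05 in it, and 39% did not overlap between the arms. The other 3 tests called 1352, 330 and 1020 of all 12679 genes lower and 962, 394 and 696 higher, in that order. The light chain gene B2m stood at 1046, 1820 and 1620 CPM with vehicle and at 1248, 1362 and 1410 CPM with CX-5461. Vehicle library 1 was the lowest of the 6 and library 2 the highest. Its log2 fold change was -0.16 (SE 0.189).

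The heavy chain genes had the same spread. H2-K1 was measured at 652, 1150 and 1030 CPM with vehicle and 740, 826 and 881 CPM with CX-5461, a log2 fold change of -0.21 (SE 0.197). H2-D1 had 1053, 1677 and 1425 CPM with vehicle and 1054, 1133 and 1245 CPM with CX-5461, a log2 fold change of -0.28 (SE 0.163). These 2 genes share sequence with other class I genes. Of the 50-base windows of the longest coding transcript, 8.79% for H2-K1 and 14.3% for H2-D1 occur in a transcript of another gene, mostly of H2-D1 or H2-Q1, so that their counts are uncertain where reads could be assigned to either. None of the class II members' windows were shared.

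The peptide supply genes varied less between the arms than among vehicle libraries. Tap1 had 146, 251 and 223 CPM with vehicle and 177, 198 and 203 CPM with CX-5461. Tapbp had 193, 248 and 238 CPM with vehicle and 168, 198 and 205 CPM with CX-5461. For the transactivator gene Nlrc5 the values were 31.5, 50.8 and 58.8 CPM with vehicle and 31.8, 38.1 and 47.6 CPM with CX-5461. The log2 fold changes were -0.10 (SE 0.185) for Tap1, -0.25 (SE 0.113) for Tapbp and -0.26 (SE 0.243) for Nlrc5. Vehicle library 1 was the lowest of all 6 libraries for 5 of the 6 class I genes, all but Tapbp. Without it B2m (-0.36), H2-K1 (-0.42) and H2-D1 (-0.44) passed the edgeR quasi-likelihood test with adjusted p of 0.0450, 0.0425 and 0.0463, in a fit that called 861 of all genes lower, and H2-Eb1 did not. Without vehicle library 2 the values of B2m (0.0060) and Tap1 (0.06) turned positive.

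The 2 classes differed in how the libraries were ordered. All 4 class II genes were highest in vehicle library 2, then 1, then 3, with a ratio of 6.74 to 8.69 between the highest and lowest vehicle library. Of the 6 class I genes, 5 were highest in vehicle library 2, then 3, then 1, and Nlrc5 was highest in library 3, with ratios of 1.28 to 1.87. Within CX-5461 all 6 class I genes were highest in library 3 and lowest in library 1, while all 4 class II genes were highest in library 1. Over the 6 libraries, Pearson's r with the mean log2 CPM of the class II members was 0.08 to 0.52 for the class I members and 0.969 to 0.998 for the class II members, which are part of that mean.

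**Figure D2:**
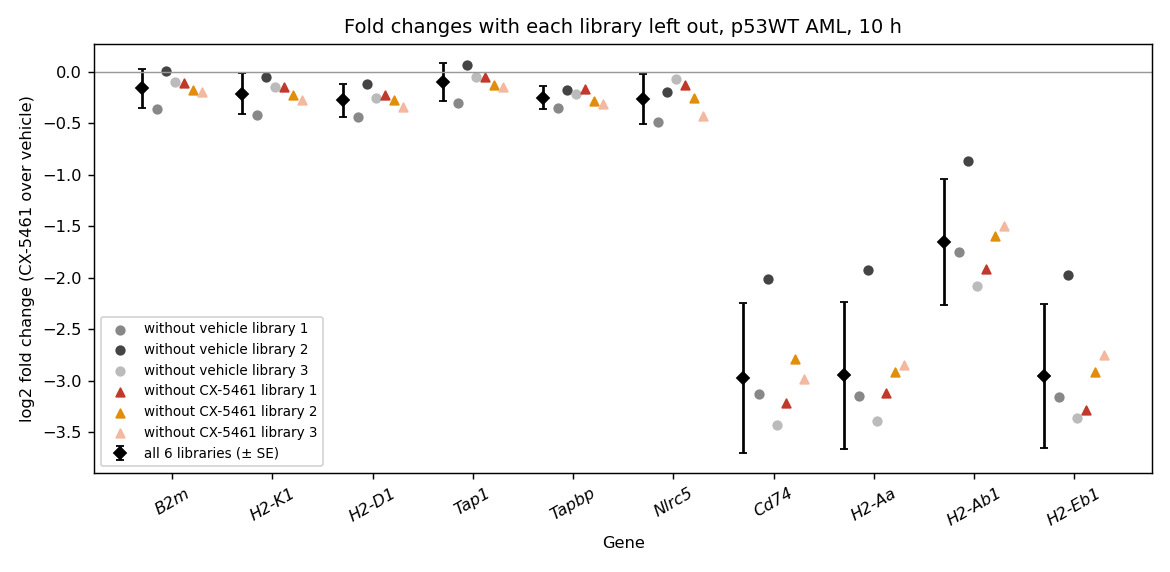
Log2 fold change (CX-5461 over vehicle, y axis) of each member in p53WT AML at 10 h, with all 6 libraries (black diamonds, bars are the SE) and with 1 library left out (circles for vehicle, triangles for CX-5461). Leaving out vehicle library 2 moves the class II genes most (H2-Eb1 from -2.95 to -1.97), and the class I genes stay between -0.49 and 0.06.

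The next question is how the same genes stood in the 3 treated arms, for which the authors' deposited tables give fold changes from 1 kind of fit. The 3 comparisons share no samples, their tables were normalized separately, and differences between them were not tested. The direction of fold changes in the p53null and 72 h tables was taken to be CX-5461 over vehicle, as checked on counts for p53WT AML at 10 h only. In the authors' deposited table for p53WT AML at 72 h all 4 class II members rose: Cd74 4.79-fold, H2-Aa 4.93-fold, H2-Ab1 2.31-fold and H2-Eb1 4.19-fold. Their FDR values in that deposited table lay between 4.16e-28 and 6.81e-21, in a comparison where 16.1% of all genes were called higher. At 10 h the authors' deposited log2 fold changes of these genes in p53WT AML were -2.99, -2.96, -1.66 and -2.97, and at 72 h they were 2.26, 2.30, 1.21 and 2.07. The sign of each class II gene was thus opposite at the 2 times, and H2-Ab1 had the smallest size at both. Erythroid, neutrophil and macrophage markers were also mostly called higher at 72 h, and monocyte markers mostly lower, with counts given further on. The part of these markers in the class II values was not tested.

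Class I genes went the other way from class II at 72 h. Of the 6 genes, 5 fell in the authors' deposited table, where 15.1% of all genes were called lower and 31.2% in either direction. The largest of these falls was that of Nlrc5, by 0.69 on the log2 scale (FDR 0.000505 in the authors' deposited table). Tap1 fell by 0.45, Tapbp by 0.41, H2-K1 by 0.30 and B2m by 0.28 in the authors' deposited table, with FDR values of 0.000662, 2.91e-06, 0.00861 and 0.00643. H2-D1 had a log2 fold change of -0.08 and an FDR of 0.484 in the authors' deposited table. The median over the 6 genes was -0.36 in that deposited table, beside -0.0080 for all genes tested.

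In p53null AML at 10 h no member passed the authors' edgeR test (0 at an unadjusted p under 0.05, lowest p 0.0711 for Cd74), in a deposited table where 0.0389% of all genes were called lower, 0.148% higher and 0.187% in either direction. All 10 log2 fold changes in the authors' deposited table were positive, from 0.06 for H2-D1 to 0.24 for Cd74, and the FDR values were 0.895 or higher. For the class II genes the authors' deposited values were 0.24 for Cd74, 0.23 for H2-Aa, 0.22 for H2-Ab1 and 0.16 for H2-Eb1. With no values per library, whether the p53null arms overlapped cannot be given.

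The mean level of the class II genes was higher in the table of p53null AML than in either table of p53WT AML. For Cd74 the mean over both arms in the authors' deposited tables was 176 CPM in p53null AML, 25.4 CPM in p53WT AML at 10 h and 29.8 CPM in p53WT AML at 72 h. H2-Aa had deposited means of 66.9, 10.7 and 10.6 CPM in the same order. H2-Ab1 had 41.4, 10.7 and 12.0 CPM in the authors' deposited tables, and H2-Eb1 had 42.0, 8.22 and 8.88 CPM. Among class I genes the authors' deposited means in that order were 1417, 1414 and 972 CPM for B2m and 1778, 877 and 631 CPM for H2-K1. Nlrc5 had authors' deposited means of 95.3, 43.0 and 23.2 CPM. These levels are means over CX-5461 and vehicle, they come from separate normalizations, and sample titles at 10 h carry a different tag for each genotype whose meaning is not given (the 72 h titles carry neither), so that genotype and source cannot be told apart.

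**Figure D3:**
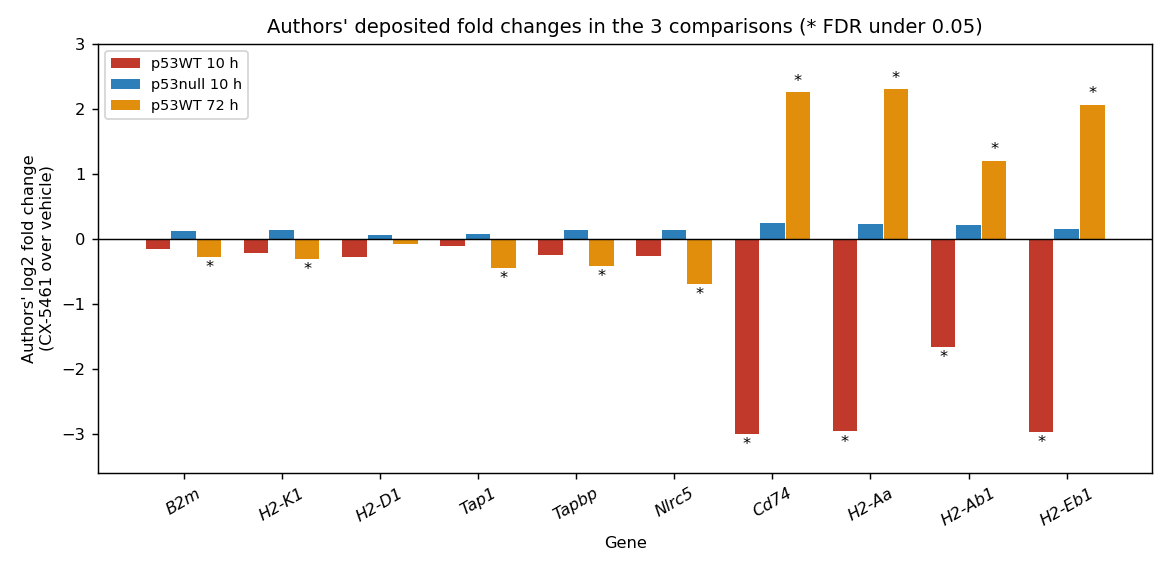
The authors' deposited log2 fold change (y axis, CX-5461 over vehicle) of the 10 members in p53WT AML at 10 h (red), p53null AML at 10 h (blue) and p53WT AML at 72 h (orange), with a star for an FDR under 0.05. The 4 class II genes on the right lie between -2.99 and -1.66 at 10 h and between 1.21 and 2.30 at 72 h in p53WT AML, while p53null values stay between 0.06 and 0.24.

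Other genes of the class I route were given by a list of 19, which holds immunoproteasome subunits, peptide trimming and folding factors and the nonclassical class I genes. Of the 17 in the count table of p53WT AML at 10 h, 0 passed the edgeR quasi-likelihood test, and the median on the log2 scale was -0.15. At an unadjusted p under 0.05, 3 were lower and 2 higher, where 16.7% and 14.7% of all genes were, a share near the background. DESeq2 called 1 lower and 1 higher, the edgeR exact test 2 lower, and limma-voom 0. Of all 12679 genes these tests called 1352, 1020 and 330 lower and 962, 696 and 394 higher, in that order. Calr, the chaperone calreticulin, had 1964, 1553 and 1849 CPM with vehicle and 2176, 2232 and 2242 CPM with CX-5461, a log2 fold change of 0.31 with an edgeR quasi-likelihood adjusted p of 0.0733. The nonclassical gene H2-T23 had 70.1, 126 and 83.8 CPM with vehicle and 50.5, 60.6 and 65.0 CPM with CX-5461, without overlap (log2 fold change -0.67, edgeR quasi-likelihood adjusted p 0.0879). H2-Q6 had 17.8, 88.1 and 29.0 CPM with vehicle and 11.3, 12.5 and 20.1 CPM with CX-5461, with overlap (edgeR quasi-likelihood adjusted p 0.114). Cd1d1, a lipid-presenting class I-like gene, had a log2 fold change of 0.29 (edgeR quasi-likelihood adjusted p 0.141). H2-Q6 and H2-Q7 are near copies of each other, and their counts are uncertain. H2-T23 (-0.67), H2-Q6 (-1.62) and H2-Q7 (-1.32) were lower in the authors' deposited table for that comparison, where 6.83% of all genes were.

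At 72 h 12 of these 17 genes fell and 0 rose in the authors' deposited table, and all 17 values were negative, with a median of -0.26. Of all genes 15.1% were called lower there and 16.1% higher. The largest fall was that of H2-T24, a nonclassical class I gene, by 1.09 on the log2 scale in the authors' deposited table, followed by H2-M3 by 0.86. The immunoproteasome subunit genes Psmb10 and Psmb8 fell by 0.63 and 0.43, H2-Q4 by 0.52 and the tapasin-like gene Tapbpl by 0.46 in the authors' deposited table. Smaller falls in the deposited table were those of H2-T23 (-0.36), H2-Q7 (-0.34), the proteasome activator genes Psme1 (-0.26) and Psme2 (-0.23), the trimming peptidase gene Erap1 (-0.25) and the transporter subunit gene Tap2 (-0.19). The folding chaperones Calr, Canx and Pdia3 did not pass there, at -0.11, -0.02 and -0.07 in the authors' deposited table. In p53null AML 0 of 17 passed the authors' edgeR test in the deposited table, also at an unadjusted p under 0.05.

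A list of 18 covered the other class II route genes. Of 16 in the count table of p53WT AML at 10 h, 0 passed the edgeR quasi-likelihood test, and the median on the log2 scale was -0.43. At an unadjusted p under 0.05, 5 were lower and 1 higher, beside the same 16.7% and 14.7% of all genes. DESeq2 and the edgeR exact test called 4 lower each, and limma-voom 0, where they called 1352, 1020 and 330 of all 12679 genes lower. The 4 with the smallest p were H2-DMb2 (-0.56), a chain of the peptide exchanger, the endosomal protease gene Lgmn (-1.23), March1 (-0.93), which encodes a ubiquitin ligase that removes class II from the surface, and the costimulatory gene Cd86 (-0.97). Their edgeR quasi-likelihood adjusted p ran from 0.0528 to 0.0765. None of the 4 overlapped between the arms, which picking them by p in the same libraries favors. Over the list 6 of 16 had all CX-5461 libraries below all vehicle libraries and 1 above, where 19.1% and 19.9% of all genes did. H2-DMb2, Lgmn, March1, Cd86 and the thiol reductase gene Ifi30 (-0.64) were lower at 10 h in the authors' deposited table, where 6.83% of all genes were.

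Ciita, the transactivator of class II genes, was not in the table of p53WT AML at 10 h, which held genes above 1 CPM in at least 3 libraries. At 72 h Ciita rose, in the authors' deposited table, 5.61-fold (FDR 4.61e-14) at a mean of 1.07 CPM, and in p53null AML it had a log2 fold change of 0.42 (FDR 0.692) at a deposited mean of 9.31 CPM. At 72 h 8 of 17 class II route genes rose and 4 fell in the authors' deposited table, where 16.1% of all genes were called higher and 15.1% lower. Besides Ciita the rises were those of Cd86 (2.42), Lgmn (2.35), Cd80 (1.33), H2-Ob (1.17), March1 (1.01), Cd40 (0.76) and the protease gene Ctsl (0.40). The falls in the deposited table were those of Ifi30 (-0.60), the peptide exchanger chains H2-DMa (-0.44) and H2-DMb1 (-0.28), and Rfx5 (-0.43), a subunit of the factor that binds the X box. Lgmn, March1 and Cd86 thus had opposite calls at 10 h and 72 h in the authors' deposited tables, as the 4 class II members had, while Ifi30 was lower at both. In p53null AML 0 of 18 passed the authors' edgeR test in the deposited table (2 at an unadjusted p under 0.05, where 6.07% of all genes were).

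Interferon signalling feeds both classes, and its genes were given by a list of 15. At 10 h in p53WT AML 2 fell by the edgeR quasi-likelihood test and 0 rose, with a median of -0.24 on the log2 scale. Of all genes 4.32% were called lower and 3.78% higher by that test. At an unadjusted p under 0.05, 6 were lower, where 16.7% of all genes were. DESeq2 and the edgeR exact test called 5 lower each, and limma-voom 1. Of all 12679 genes these tests called 1352, 1020 and 330 lower, in that order. The receptor kinase gene Jak1 had 243, 263 and 242 CPM with vehicle and 211, 210 and 210 CPM with CX-5461 (log2 fold change -0.24, edgeR quasi-likelihood adjusted p 0.0386). The repressor gene Irf2 had 55.6, 69.1 and 59.3 CPM with vehicle and 48.1, 47.5 and 47.7 CPM with CX-5461 (-0.36, edgeR quasi-likelihood adjusted p 0.0468). The receptor gene Ifnar2 (-0.24) and the activator gene Irf1 (-0.50) had edgeR quasi-likelihood adjusted p of 0.0536 and 0.0639. Both had all CX-5461 libraries below all vehicle libraries, which picking genes by p in the same libraries favors. Over the list 7 of 15 lay below in this way and 1 above, where 19.1% and 19.9% of all genes did. Irf1 was the 1 gene of 15 called lower at 10 h in the authors' deposited table, where 6.83% of all genes were, a share near the background.

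At 72 h 5 of 14 interferon signalling genes fell and 2 rose in the authors' deposited table. Of all genes 15.1% were called lower and 16.1% higher there, so that the number of rises was near the background. Among the falls were those of the transcription factor genes Irf8 (-1.42) and Irf9 (-0.89) and of the receptor genes Ifngr1 (-0.76) and Ifnar2 (-0.35). The rises in the deposited table were those of Ifngr2 (0.38) and Jak1 (0.27). In p53null AML 0 of 15 passed the authors' edgeR test in the deposited table (1 at an unadjusted p under 0.05, where 6.07% of all genes were).

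**Figure D4:**
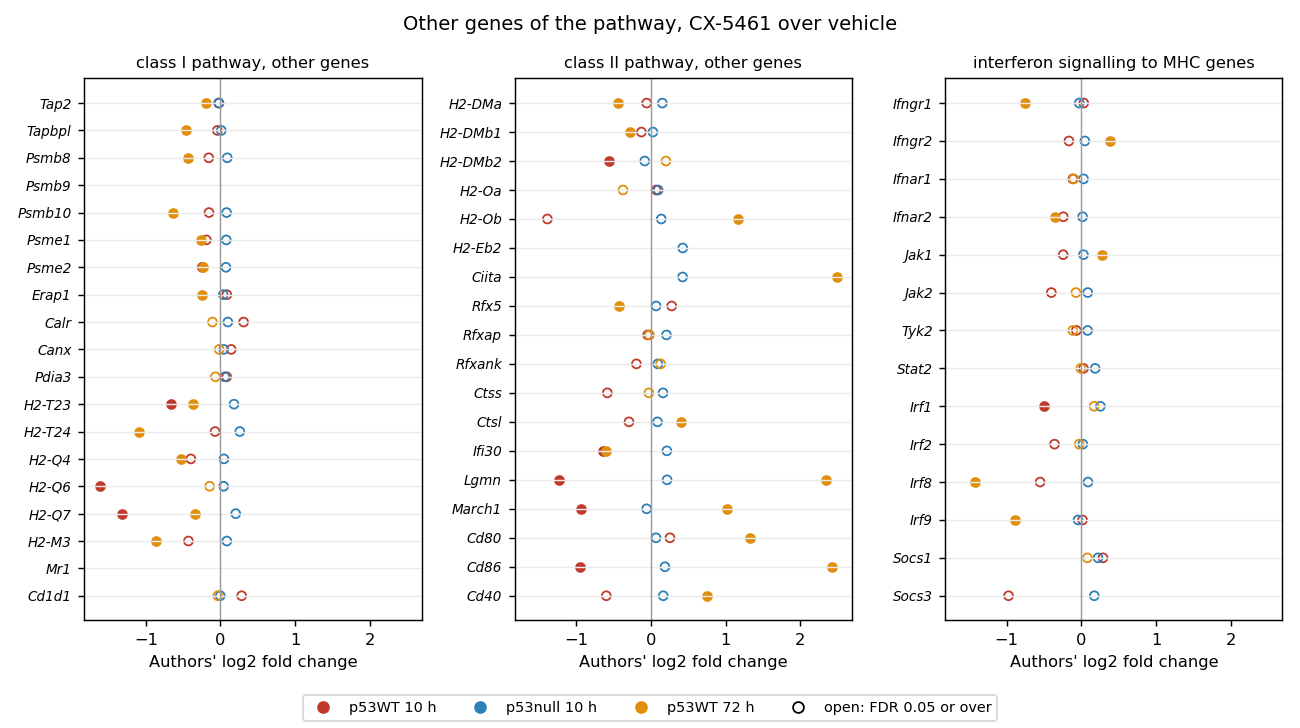
The authors' deposited log2 fold changes (x axis) of other pathway genes (rows, 1 panel per list, with 1 interferon signalling gene not drawn) in p53WT AML at 10 h (red), p53null AML at 10 h (blue) and p53WT AML at 72 h (orange), filled where the FDR was under 0.05. At 72 h the class I panel lies left of 0, and in the class II panel Ciita (2.49), Cd86 (2.42) and Lgmn (2.35) lie far to the right.

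Although the cells were sorted for GFP, markers of other marrow cells were measured, and those of erythroid cells, neutrophils and B cells ranked the vehicle libraries as class II did. Dendritic cell, macrophage and monocyte sums did not. The median of the dendritic cell markers did, at 0.47, 0.78 and -0.18 in vehicle libraries 1, 2 and 3 (log2 CPM minus the CX-5461 mean). How many of all genes had that order was not counted. In bulk samples fewer cells of a type cannot be told apart from less RNA per cell. At 10 h in p53WT AML the 4 class II members summed to 72.8, 187 and 23.7 CPM in vehicle libraries 1, 2 and 3 and to 12.6 to 19.4 CPM with CX-5461. Erythroid markers (9 of 10 in the table) summed to 496, 1749 and 60.6 CPM with vehicle and 11.3 to 16.1 CPM with CX-5461. Neutrophil markers (10 of 10) summed to 9679, 17894 and 6516 CPM with vehicle and 2582 to 3628 CPM with CX-5461. Both lists had the same order of vehicle libraries as class II.

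Among cells that carry class II, B cell markers (6 of 10) summed to 307, 565 and 160 CPM with vehicle and 105 to 127 CPM with CX-5461, also in that order. Most of this sum was the immunoglobulin genes Ighm and Igkc, and Cd79a had 8.64, 28.5 and 0.761 CPM with vehicle and 0.734 to 1.08 CPM with CX-5461. Ms4a1, Pax5 and Ebf1 were among those not in the 10 h table of p53WT AML. Macrophage markers (9 of 10) summed to 574, 787 and 692 CPM with vehicle and 542 to 574 CPM with CX-5461, most of it Vcam1, Csf1r and Adgre1. Their C1qa had 4.25, 12.1 and 3.13 CPM with vehicle and 0.597 to 1.08 CPM with CX-5461. For C1qb the values were 5.35, 15.0 and 3.85 CPM with vehicle and 1.33 to 2.14 CPM with CX-5461. C1qa, C1qb, C1qc and Cd68 had the vehicle order of class II, and Vcam1, Csf1r, Adgre1, Cd163 and Axl did not. Dendritic cell markers (4 of 10) summed to 74.5 to 108 CPM with vehicle and 93.4 to 120.5 CPM with CX-5461, most of it Bst2 (55.2 to 81.4 and 79.4 to 106 CPM). Within that list Flt3 had 3.04, 6.94 and 0.671 CPM with vehicle and 0.413 to 1.002 CPM with CX-5461, and Itgax had 6.10, 8.56 and 2.15 CPM with vehicle and 3.15 to 3.35 CPM with CX-5461. Both had the vehicle order of class II and did not pass the edgeR quasi-likelihood test, and Flt3 was lower in the authors' deposited table. Zbtb46, Xcr1, Clec9a, Cd209a, Siglech and Batf3 were not in that table. Monocyte markers (6 of 6) summed to 1706 to 2305 CPM with vehicle and 1784 to 2148 CPM with CX-5461, most of it Ly6c2 and F13a1. Of the 8 T and NK cell markers only Cd3d was in the table. It had 1.31, 4.90 and 1.07 CPM with vehicle and 0.596 to 0.872 CPM with CX-5461.

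By the edgeR quasi-likelihood test 8 of 9 erythroid, 7 of 10 neutrophil, 1 of 6 B cell (Ighm), 1 of 9 macrophage (C1qa), 1 of 6 monocyte and 0 of 4 dendritic cell markers fell at 10 h, and 0 rose. That test called 4.32% of all genes lower and 3.78% higher. For the lists in that order, the numbers called lower were 9, 10, 3, 6, 3 and 1 by DESeq2 and 0, 5, 0, 0, 1 and 0 by limma-voom. Of all 12679 genes DESeq2 called 1352 lower and limma-voom 330. In the authors' deposited table at 10 h the numbers called lower were 9, 10, 5, 4, 3 and 1, where 6.83% of all genes were. At 72 h the authors' deposited table called 8 of 10 erythroid, 10 of 10 neutrophil, 7 of 10 macrophage, 3 of 7 B cell and 3 of 5 dendritic cell markers higher, with median log2 fold changes of 1.75, 1.03, 1.98, 1.29 and 0.84. The monocyte markers went the other way, with 1 of 6 called higher and 4 lower and a median of -0.57. Of the dendritic cell markers 1 was called lower, and 0 of the erythroid, neutrophil, macrophage and B cell markers were. There 16.1% of all genes were called higher and 15.1% lower. In p53null AML 0 genes of these lists passed in the authors' deposited table, and 2 of the 10 erythroid markers were in it. At an unadjusted p under 0.05, where 6.07% of all genes were in p53null AML, there were 2 of 6 B cell, 2 of 10 macrophage and 2 of 6 monocyte markers, and 0 of the erythroid, neutrophil and dendritic cell markers. The part of these cells in the class II values was not tested.

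**Figure D5:**
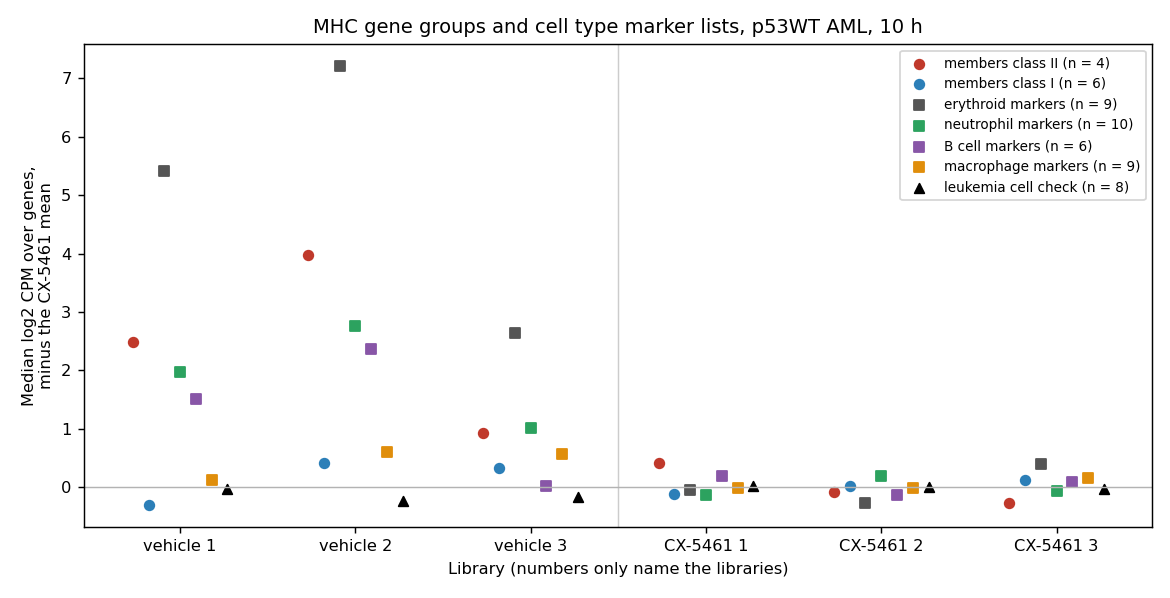
Median log2 CPM over the genes of a list, minus the mean of the CX-5461 libraries (y axis), for each library of p53WT AML at 10 h (x axis), with circles for the 2 groups of members, squares for marker lists and triangles for the leukemia genes. Class II members lie 2.48, 3.98 and 0.93 above the CX-5461 mean in vehicle libraries 1, 2 and 3, in the same order as the erythroid, neutrophil and B cell lists, while class I members lie at -0.31, 0.42 and 0.32.

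Outside all lists, 10069 genes with a symbol and a mean of at least 5 CPM were ranked by how closely their log2 CPM followed the members over the 6 libraries of p53WT AML at 10 h. The 5 most like the class II mean were Itsn1, Ulk1, Tmem131l, Arhgef12 and Zfpm1, with Pearson's r from 0.993 to 0.995. Itsn1 had 12.7, 30.8 and 3.76 CPM with vehicle and 2.52 to 3.24 CPM with CX-5461. The 5 most like the class I mean were Uba7, Parp12, H2-T10, Gm15280 and Zbp1, with r from 0.983 to 0.992. Uba7 had 111, 157 and 144 CPM with vehicle and 114, 128 and 131 CPM with CX-5461. These values describe 6 libraries that share their arms and depths, and with so many genes ranked over so few libraries they carry no test.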

How the data were processed

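RNA was sequenced from sorted GFP-positive AML cells, 18 samples in 6 groups of 3. The build was mm9 and the tools were Bowtie, HTSeq, edgeR and CASAVA 1.8.2, per the submitters' processing notes. Their settings and the annotation are not given in the sources used here. The table of p53WT AML at 10 h holds raw counts per gene, deposited by the authors for 6 libraries. All 3 tables also hold a log2 fold change, a log2 CPM, a p-value and an FDR for each gene, deposited by the authors, per the file headers. Count columns name an arm and a number from 1 to 3, while the titles are numbered from 3 to 5, so each column was assigned to its group only. On the count table the deposited fold changes followed CX-5461 over vehicle (Pearson's r 0.99965 over genes with a ratio of group mean CPM). The same sign was assumed for both other tables, which have no counts to check it on.

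Counts were normalized by TMM and tested over all 12679 genes in edgeR 4.0.16 (R 4.3.3) with its quasi-likelihood F test, two-sided, with Benjamini-Hochberg adjustment and a threshold of 0.05. The test was also run on simulated counts with the same spread in both arms. That run does not cover the wider spread of the vehicle libraries here. SE values are the log2 fold change over the root of F, log2 CPM used a prior count of 2, and CPM values are TMM normalized. The other tables hold no counts, so the authors' FDR at 0.05 stood in for the planned count test. IDs were matched to symbols for 12237, 12366 and 12362 genes. All 12679 genes exceeded 1 CPM in at least 3 libraries, and all 10 members did so in all 6. The TruSeq kit marks no strand. Named were all members, the 4 genes of each pathway list with the smallest p and any called in a table, and the 5 genes most like each class. Some list genes are counted but not reported here by name. The members and lists were chosen with earlier results of these data known. Alternatives were other normalizations, filters and tests (DESeq2 1.42.0, limma 3.58.1), leaving out each library, and an FDR of 0.01.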

Additional observations from a re-analysis of the deposited data

How the results depend on the processing

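In p53WT AML at 10 h the number of members called lower was 1 by the edgeR quasi-likelihood test and the same 1 gene, H2-Eb1, with RLE factors or filterByExpr. It was 3 with a mean of at least 5 CPM, 3 by DESeq2 and 3 by the edgeR exact test (Cd74, H2-Aa and H2-Eb1 each time), and 0 by limma-voom, with library size alone or with the robust setting of the quasi-likelihood fit. Leaving out 1 library gave 0 to 4 members lower. Members called higher were 0 under all 14 alternatives. Over all genes 548 were lower and 479 higher. With RLE factors 565 were lower, with filterByExpr 548, with library size alone 462 and with the robust setting 485. With a mean of at least 5 CPM 655 of the genes kept were lower. DESeq2 called 1352 lower and 962 higher, the edgeR exact test 1020 lower and limma-voom 330 lower, and leaving out 1 library gave 0 to 861 lower and 23 to 817 higher. Without vehicle library 2 the log2 fold changes of B2m (0.0060) and Tap1 (0.0632) turned positive (edgeR adjusted p 0.987 and 0.845), and the other 8 members stayed negative under all 14. Leaving out 1 library moved B2m between -0.36 and 0.0060 and Tap1 between -0.30 and 0.0632. The class II log2 fold changes ranged from -3.43 to -0.87 and the class I values from -0.49 to 0.06. The median of all genes moved to 0.04 with library size alone. At an FDR of 0.01 the authors' tables gave the same member counts, 0 in p53null AML and 4 higher and 5 lower at 72 h. Of all genes 13 of 12861 were higher and 5 lower in p53null AML at that FDR. At 72 h 1521 of 12838 were higher and 1318 lower. The cause of the changed calls was not tested.

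No paired analysis was possible because the count columns are not tied to the numbered sample titles and the other tables hold no values per library. With 3 libraries per group the precision of the class II values is limited by the spread of the vehicle libraries, and the lowest member count was 29 reads.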
